A study of Mus musculus with 4 samples.

Results

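The genes described here are 10 members of the Notch pathway: the receptor genes Notch1 and Notch2, the ligand genes Jag1, Jag2 and Dll1, the receptor modifier gene Lfng, and the target genes Hes1, Hey1, Hey2 and Heyl. They were chosen by name, and all 10 were found among the 17568 genes of the deposited table. RNA sequencing measured expression in forelimbs that had been kept in culture. They came from E10.25 mouse embryos of the Swiss Webster strain, wild type, with 31 to 34 somites. The control group had 2 libraries from control medium, and the cyclopamine group (the agent is spelled cyclopmaine in the labels) had 2 libraries from medium with that compound, an inhibitor of Smoothened, the membrane protein that relays Hedgehog signals. Nothing in the sources used here states the dose, the vehicle, how long the limbs were cultured, or how many limbs went into a library. The libraries are named as biological replicates, and p-values measure only the spread between these samples.

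Notch receptors are single-pass membrane proteins that are activated by ligands on a neighbouring cell. Ligand binding leads to cleavage by an ADAM protease and then by gamma-secretase, and the freed intracellular domain joins the DNA-binding protein RBPJ and a Mastermind coactivator to switch on genes such as the Hes and Hey repressors. In the limb bud the pathway is known from the apical ectodermal ridge, where Jag2 limits ridge size and its loss fuses digits, and from blood vessels.

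Letters that match the RBPJ motif are shown for the 2 of these genes whose start-site windows held a long match. RefSeq windows on GRCm38.p6, from 250 bases before to 50 after a start site, were matched for 7 of the 10 genes (8 windows), and Hes1, Hey1 and Heyl were not matched. The core letters TGGGAA, or TTCCCA on the other strand, occurred in the windows of 2 genes, Lfng and Hey2, and in 25.6% of all 32851 windows. The longer form CGTGGGAA, which contains the core, or TTCCCACG on the other strand, occurred in the same 2 genes and in 0.734% of all windows. The first 260 bases of each window are printed 5′ to 3′ along the gene, with the matches in capitals, and the last 10 bases lie after the start site.
Lfng, chr5:140607091-140607350, plus strand: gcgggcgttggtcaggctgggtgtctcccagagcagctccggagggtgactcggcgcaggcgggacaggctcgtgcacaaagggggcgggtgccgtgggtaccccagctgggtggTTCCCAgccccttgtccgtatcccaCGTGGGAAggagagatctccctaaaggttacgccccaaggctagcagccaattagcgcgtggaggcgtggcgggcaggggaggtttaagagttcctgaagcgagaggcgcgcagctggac
Hey2, chr10:30842774-30843033, minus strand: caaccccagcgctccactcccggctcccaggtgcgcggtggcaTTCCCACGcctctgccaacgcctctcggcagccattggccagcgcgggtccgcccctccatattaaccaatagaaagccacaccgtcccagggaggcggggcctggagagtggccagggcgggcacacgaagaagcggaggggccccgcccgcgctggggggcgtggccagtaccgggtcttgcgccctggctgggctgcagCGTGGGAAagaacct
In Lfng the longer match began 110 bases before the start site and a separate core match began 135 bases before it. In Hey2 the longer form occurred on both strands, beginning 207 and 5 bases before the start site. The GLI letters TGGGTGGTC, or GACCACCCA on the other strand, were found in 0 of the 7 genes and in 0.253% of all windows. These are matches of letters only, and they say nothing of whether a factor was bound.

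The libraries held between 9779589 and 13555492 gene-assigned reads, and a single read was worth between 0.0735 and 0.103 CPM (normalized counts per 1000000). The Hedgehog target gene Gli1 stood at 56.2 and 56.7 CPM in the control libraries and at 8.05 and 4.70 CPM with cyclopamine (limma adjusted p = 4.32e-06). Limb mesenchyme markers marked the tissue, with all 7 detected in every library and a summed level of 1397 to 1485 CPM in control and 1493 to 1724 CPM in cyclopamine. Counts of every pair of libraries differed by more than sampling noise. The chi-square per degree of freedom was 16.2 between the controls and 16.4 between the cyclopamine libraries, and it was lower between libraries of the same number, at 8.60 for control 1 with cyclopamine 1 and 14.4 for control 2 with cyclopamine 2.

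The comparison asked how Notch pathway transcripts differ in forelimbs when Hedgehog signalling is inhibited. Jag1, Dll1, Hey1 and Heyl lay lower in both cyclopamine libraries than in both controls, by between 0.40 (Jag1) and 1.18 (Heyl) on the log2 scale, but none of these differences passed adjustment over all genes. Notch1, Notch2, Jag2, Lfng, Hes1 and Hey2 had overlapping groups. Limma, on log2(CPM + 0.5) with Benjamini-Hochberg adjustment over 13568 genes, placed 0 of the 10 members past an adjusted p of 0.05, and all 10 had passed the filter of a mean of 1 CPM. Over all genes 38 passed, which is 0.280%, with 0.0442% higher and 0.236% lower. At an unadjusted p under 0.05, limma had 4 members lower and 0 higher, against 2.78% and 3.04% of all genes. The quasi-likelihood test of edgeR and DESeq2, on reads recovered from the deposited values, also placed 0 members past the threshold. Over all genes they called 0.295% and 0.383% in the same order. Each had 4 members at an unadjusted p under 0.05, against 817 (edgeR) and 522 (DESeq2) of all 13568 genes. Groups did not overlap, with cyclopamine lower, for 4 members and for 15.8% of all genes, and with cyclopamine higher for 0 members and for 16.8% of all genes. The median log2 fold change was -0.02 over the members and 0.00 over all genes.

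**Figure D1:**
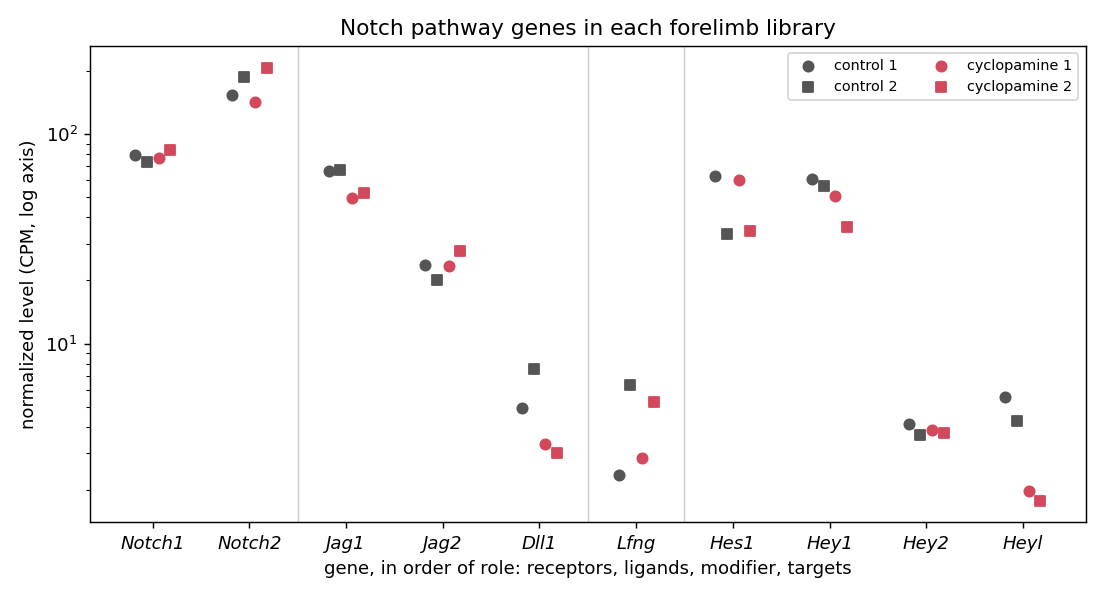
Normalized level (CPM, log axis) of the 10 genes in each of the 4 libraries, with controls in grey and cyclopamine in red, replicate 1 as circles and replicate 2 as squares. The red symbols lie below both grey ones for Jag1, Dll1, Hey1 and Heyl, while Hes1 and Lfng separate by replicate number.

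The receptor genes were at closely similar levels in both conditions. Notch1 (chr2:26457903-26516663, minus strand, mm10) encodes a receptor known from the ridge and from vessels. It stood at 79.3 and 73.2 CPM in the control libraries and at 76.4 and 83.5 CPM with cyclopamine, so that the groups overlapped. Its log2 fold change was 0.07 (SE 0.15), with a 95% interval from -0.25 to 0.39. Notch2 (chr3:98013527-98150361, plus strand), a receptor of the same build, stood at 153 and 187 CPM in the control libraries and at 142 and 207 CPM with cyclopamine. The cyclopamine libraries thus enclosed the controls, and the log2 fold change was 0.02 (SE 0.18, 95% interval -0.36 to 0.41). Notch2 made up 71.8% and 77.1% of the combined Notch1 and Notch2 level per kilobase of exon in controls 1 and 2, and 71.1% and 76.6% in cyclopamine 1 and 2. That share was lower in both libraries numbered 1 and higher in both numbered 2, in either condition. Exons of Notch1 overlap annotated genes on the opposite strand (0610009E02Rik and Gm13568) and those of Notch2 overlap Gm42820 on the same strand, and whether counting used strand is not given in these sources.

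The ligand genes differed in the sign of their fitted values, with Jag1 and Dll1 lower and Jag2 higher in cyclopamine, none past the threshold. Jag1 (chr2:137081456-137116644, minus strand), which encodes a Serrate-type ligand, stood at 66.2 and 67.4 CPM in the control libraries and at 49.3 and 52.1 CPM with cyclopamine. The distance between the groups was larger than the distance between libraries of either group, with means of 66.8 ± 0.850 CPM (SD, n = 2) and 50.7 ± 1.98 CPM (SD, n = 2). The log2 fold change was -0.40 (SE 0.15, 95% interval -0.72 to -0.07), with a limma adjusted p = 0.667. These tissues were not sorted, so fewer cells of a type and less RNA per cell cannot be told apart here. Jag2 (chr12:112907819-112929776, minus strand), the Serrate-type ligand of the ridge, stood at 23.8 and 20.1 CPM in the control libraries and at 23.4 and 27.7 CPM with cyclopamine. Its groups overlapped, and the log2 fold change was 0.21 (SE 0.19, 95% interval -0.19 to 0.62, limma adjusted p = 0.9996). The difference between the changes of Jag1 and Jag2 was not tested. Ridge and ectoderm markers summed to 354 to 432 CPM in control and 335 to 435 CPM in cyclopamine, with all 12 detected in every library, and Fgf8, the ridge growth factor among them, fell from 30.8 and 32.3 CPM to 10.18 and 9.40 CPM (limma adjusted p = 0.000973). Fgf8 was the 1 marker of these 12 past the threshold, while 7 of the 12 had a log2 fold change above 0 and 5 below 0. The Jag2 values, from a gene known in the same ridge, overlapped between conditions beside the fall of Fgf8.

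Dll1 (chr17:15367354-15376872, minus strand), a Delta-type ligand known from presomitic mesoderm, myoblasts and neural progenitors, stood at 4.95 and 7.57 CPM in the control libraries and at 3.31 and 2.998 CPM with cyclopamine. These values rest on 48 and 103 control reads and 42 and 37 cyclopamine reads. Both cyclopamine libraries lay under both controls, and control 2 stood well above control 1. Fitted over both groups, the difference was -0.86 on the log2 scale (SE 0.32, 95% interval -1.53 to -0.19, limma adjusted p = 0.626). Without control 2 it was -0.58, and without control 1 it was -1.14. Exons of Dll1 overlap A930024N18Rik on the opposite strand. Neural markers were lower as well, with a summed level of 111 and 127 CPM for the controls and 66.4 and 58.7 CPM with cyclopamine. Among the 12 neural genes, 4 had 0 reads in cyclopamine 1 and 4 in cyclopamine 2, whereas all had reads in both controls. Those at 0 were Zic1, Nhlh1, Neurod4 and Olig3 in cyclopamine 1 and Sox1, Sox2, Neurod4 and Olig3 in cyclopamine 2. Of the 7 neural genes tested, Sox2 and Pax6 reached the filter of a mean of 1 CPM only through their control libraries. Their place among the tested genes thus favours a fall, and the lists were chosen with earlier results of these data known. All 7 had a log2 fold change below 0, and 4 of them, without Sox2 and Pax6, passed the threshold in limma. Among those 4, Elavl3, an RNA-binding protein gene of neurons, stood at 4.85 and 9.33 CPM in the control libraries. With cyclopamine it stood at 1.104 and 0.972 CPM (limma adjusted p = 0.0189). Myoblast markers, 6 in all, summed to 45.6 and 80.3 CPM for the controls and 70.2 and 80.0 CPM with cyclopamine. The part of either cell type in the Dll1 result was not tested.

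Lfng (chr5:140607320-140615545, plus strand) encodes Lunatic fringe, a glycosyltransferase that adds a sugar to Notch and so alters its response to Delta and Jagged ligands. It stood at 2.37 and 6.32 CPM in the control libraries and at 2.84 and 5.27 CPM with cyclopamine, from 23, 86, 36 and 65 reads. The libraries of each condition lay farther apart than the means of the conditions (4.35 and 4.05 CPM), and the cyclopamine libraries lay between the controls. The log2 fold change was -0.01 (SE 0.41), and its 95% interval, from -0.88 to 0.86, was the widest among the 10 genes.

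The target genes differed from each other. Heyl (chr4:123233556-123249875, plus strand), a Hey-family repressor gene known from vascular smooth muscle and sensory ganglia, had the smallest unadjusted p of the 10 genes. It stood at 5.57 and 4.26 CPM in the control libraries and at 1.97 and 1.78 CPM with cyclopamine, from 54 and 58 control reads and 25 and 22 cyclopamine reads. The groups stood apart, with means of 4.92 ± 0.927 CPM (SD, n = 2) and 1.88 ± 0.134 CPM (SD, n = 2). The log2 fold change was -1.18 (SE 0.34, 95% interval -1.90 to -0.45), with an unadjusted p of 0.00339 in limma and an adjusted p = 0.332. The authors' deposited table gives Heyl a log2 fold change of -1.38, a p-value of 0.00163 and a false discovery rate of 0.173. Mural cell markers, 6 genes, summed to 167 and 214 CPM for the controls and 166 and 240 CPM with cyclopamine. Neural crest and Schwann markers, 5 genes, summed to 24.0 and 17.0 CPM for the controls and 21.9 and 19.4 CPM with cyclopamine. Neither sum was lower in both cyclopamine libraries, unlike the neural sum given with Dll1. The part of any of these cell types in the Heyl result was not tested.

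Hey1 (chr3:8663359-8667256, minus strand) encodes a repressor of the same family that is known from arteries and mesenchyme. It stood at 60.7 and 56.2 CPM in the control libraries and at 50.3 and 36.1 CPM with cyclopamine. Both cyclopamine libraries lay under both controls, and they differed more from each other than the controls did. On the log2 scale the fitted difference was -0.45 (SE 0.18, 95% interval -0.83 to -0.07, limma adjusted p = 0.695). It was -0.21 without cyclopamine 2 and -0.69 without cyclopamine 1. Hey2 (chr10:30832359-30842801, minus strand), the third Hey gene, known from arteries and heart, stood at 4.13 and 3.67 CPM in the control libraries and at 3.87 and 3.73 CPM with cyclopamine. Its libraries lay close together, from 40, 50, 49 and 46 reads, with a log2 fold change of -0.03 (SE 0.31, 95% interval -0.70 to 0.63). Endothelial markers, 12 genes all detected in every library, summed to 442 and 441 CPM for the controls and 498 and 552 CPM with cyclopamine. Of these 12 markers 0 passed the threshold in limma, with 2 higher and 0 lower at an unadjusted p under 0.05 (3.04% and 2.78% of all genes). All 12 had a log2 fold change above 0, against 51.0% of all genes. For 6 of them both cyclopamine libraries lay above both controls, against 16.8% of all genes. The part of endothelial cells in the Hey1, Hey2 and Jag1 values was not tested.

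Hes1 (chr16:30064384-30067796, plus strand), a repressor gene that answers to Notch and to other signals, stood at 63.2 and 33.3 CPM in the control libraries and at 60.0 and 34.6 CPM with cyclopamine. The libraries numbered 1 were high and those numbered 2 low in both conditions. Its fitted log2 difference was -0.01 (SE 0.27, 95% interval -0.58 to 0.56). In the authors' deposited table it is -0.03 for Hes1, -0.43 for Hey1 and -0.03 for Hey2, with a false discovery rate of 0.781 for Hey1 and of 1 for the other two.

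**Figure D2:**
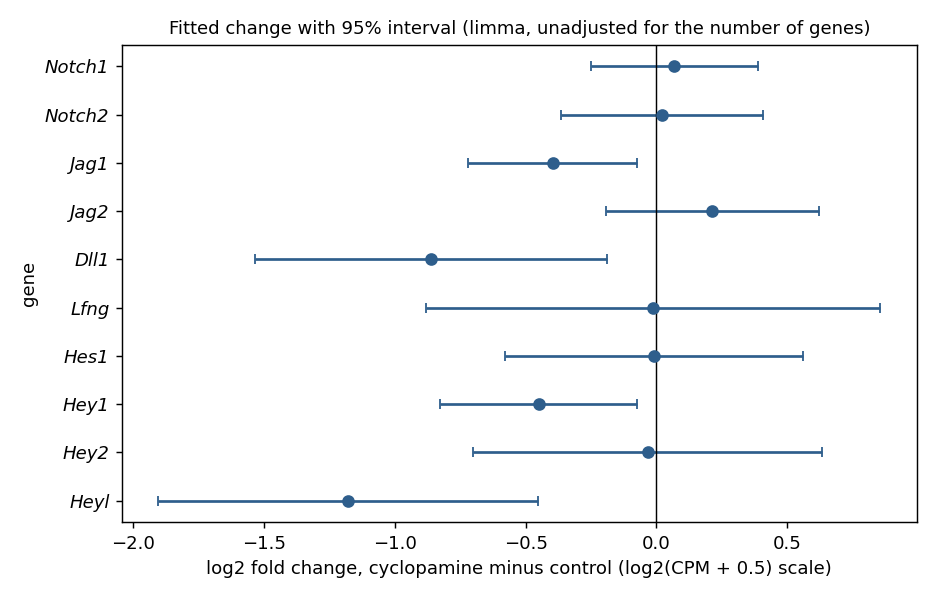
Log2 fold change of cyclopamine over control for the 10 genes, on the log2(CPM + 0.5) scale, with points for the limma estimate and bars for its 95% interval, not adjusted for the number of genes. The intervals of Jag1, Dll1, Hey1 and Heyl lie below 0, and Heyl is lowest at -1.18.

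Hes1, Lfng and Notch2 differed more between libraries of the same condition than between conditions. On the log2 scale, the difference of Hes1 was -0.92 for control 2 minus control 1 and -0.79 for cyclopamine 2 minus cyclopamine 1. Lfng went the other way, with differences of 1.25 and 0.79, and Notch2 followed it with 0.29 and 0.54. For these 3 genes the sign was the same in both conditions, while the fitted treatment differences were -0.01, -0.01 and 0.02. The sign was also shared for Jag1, Hey1 (-0.11 and -0.48), Hey2 (-0.15 and -0.05) and Heyl (-0.35 and -0.12). Notch1 (-0.12 and 0.13), Jag2 (-0.24 and 0.24) and Hey2 likewise differed more within each condition than by their fitted treatment differences. Jag1 differed little within conditions, by 0.03 and 0.08. Dll1 differed by 0.57 between the controls and by -0.12 between the cyclopamine libraries. The labels tie the replicate number to no litter, culture or day. Summed marker levels also differed by replicate number. The erythroid sum was 791 and 352 CPM in controls 1 and 2 and 1251 and 742 CPM in cyclopamine 1 and 2, carried mostly by the globin genes Hba-x and Hbb-bh1, while Klf1 went the other way. The ridge and ectoderm sum (432 and 354 CPM, then 435 and 335 CPM in the same order) and the neural crest and Schwann sum were higher in the libraries numbered 1 as well. Higher in the libraries numbered 2 were the sums of mural markers, which is mostly Pdgfrb, of myoblast markers and of limb mesenchyme markers (1397 and 1485 CPM, then 1493 and 1724 CPM). Not every gene followed the sum of its list. The limb mesenchyme genes Twist1 (276 and 201 CPM, then 246 and 244 CPM) and Prrx2 were higher in the libraries numbered 1. The ridge and ectoderm genes Trp63 (59.5 and 67.1 CPM, then 64.8 and 68.6 CPM) and Dlx6 were higher in those numbered 2. The part of these cells in the differences was not tested.

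**Figure D3:**
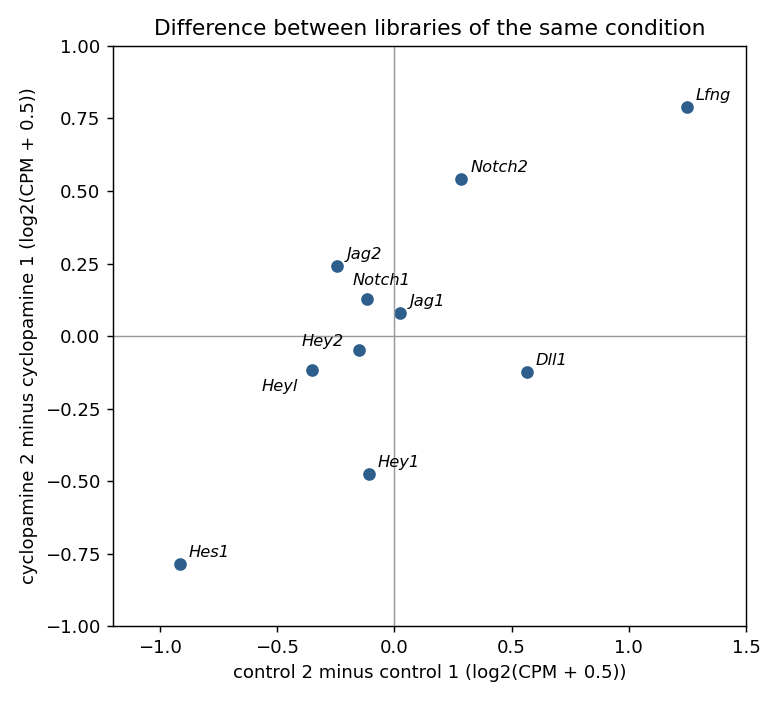
Difference between the 2 libraries of a condition for each of the 10 genes, controls on the horizontal axis and cyclopamine on the vertical axis, both as log2(CPM + 0.5), replicate 2 minus replicate 1. Hes1 lies far to the lower left (-0.92, -0.79) and Lfng far to the upper right (1.25, 0.79), while Jag1 lies near the origin.

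Levels were set against each other per kilobase of annotated exon (GENCODE vM21 on mm10, all exons of a gene merged), since longer transcripts give more reads. The order of mean levels over the 4 libraries ran from Hes1 (23.5 CPM per kb) through Notch2 (16.0), Hey1 (15.6), Jag1 (10.1), Notch1 (5.49), Jag2 (3.41), Lfng (1.68), Dll1 (1.12) and Hey2 (0.838) to Heyl (0.664). The range of libraries overlapped between each neighbouring pair from Hes1 to Jag1, and again between each pair from Lfng to Heyl. Jag1 did not overlap with Notch1, nor Notch1 with Jag2, nor Jag2 with Lfng. Among the targets, Hes1 and Hey1 were thus far more abundant than Hey2 and Heyl. Among the ligands Jag1 led, with 71.2% and 71.2% of the combined Jag1, Jag2 and Dll1 level per kilobase in the controls and 67.2% and 65.6% in cyclopamine. By the longest coding transcript in place of merged exons, Hey1 and Notch2 exchanged places, as did Dll1 and Hey2.

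**Figure D4:**
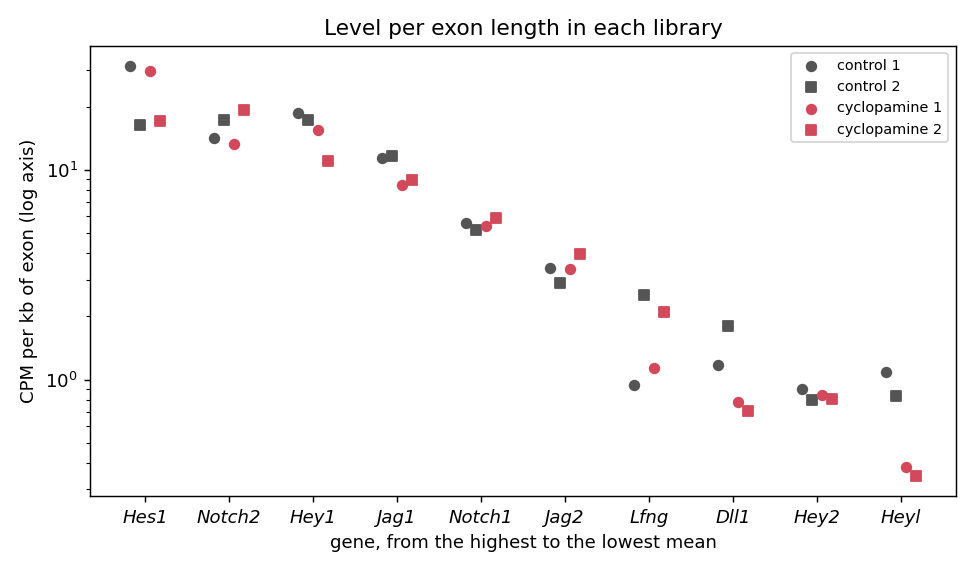
Level per kilobase of merged exon (CPM per kb, log axis) of the 10 genes in each library, ordered by mean, with controls in grey, cyclopamine in red, replicate 1 as circles and replicate 2 as squares. Levels run from 23.5 CPM per kb for Hes1 to 0.664 for Heyl, and neighbours in the order overlap except from Jag1 to Notch1, Notch1 to Jag2 and Jag2 to Lfng.

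The rest of the pathway was examined with a list of 50 further genes, of which 48 were in the table and 44 were tested. Limma placed 0 of them past the threshold (4 at an unadjusted p under 0.05, 1 higher and 3 lower), as did edgeR (4) and DESeq2 (3). Over all 13568 genes, 789 in limma, 817 in edgeR and 522 in DESeq2 had an unadjusted p under 0.05. Among the 3 lower genes, Dner passed the filter only through its control libraries. The median log2 fold change was 0.01, with 24 genes above 0 and 20 below (51.0% of all genes were above 0). Groups did not overlap for 7 genes with cyclopamine lower and for 7 with cyclopamine higher, close to the 15.8% and 16.8% of all genes.

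Among further ligands and receptors, Dner, a neuronal Notch ligand gene, stood at 1.03 and 2.50 CPM in the control libraries and at 0.473 and 0.486 CPM with cyclopamine (log2 difference -1.13, SE 0.49). These values rest on 10 and 34 control reads and 6 and 6 cyclopamine reads. With a mean of 1.12 CPM, Dner passed the filter only through its control libraries, so its place among the tested genes favours a fall. Dll4, the Delta-type ligand of arterial endothelium, measured 26.1 and 23.4 CPM against 27.8 and 28.7 CPM (0.19, SE 0.18). Its groups did not overlap and cyclopamine was the higher, the opposite order to Dll1 and Jag1. For Dlk1, an imprinted gene encoding a Delta-related protein, the fitted difference was 0.17 (SE 0.17), and for the receptor gene Notch3 it was -0.06 (SE 0.16). Dll3, Dlk2, Hes5 and Hes7 lay under the filter, and they are named for that reason after their values were seen. Dll3, a Delta-type gene of presomitic and neural tissue, had 10 and 22 reads in the controls and 6 and 4 in cyclopamine. Hes5, a Notch target of neural progenitors, had 2 and 14 control reads and 1 read in each cyclopamine library. Dlk2, for another Delta-related protein, had the opposite order, with 2 and 3 control reads and 8 and 18 cyclopamine reads. Hes7, a Hes gene known from the segmentation clock, overlapped between groups, with 8 and 7 control reads and 10 and 5 cyclopamine reads. Few reads thus lay behind each of these genes, and their groups did not share an order.

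Among 29 genes of receptor glycosylation, cleavage and trafficking, Dtx4, which encodes a Deltex ubiquitin ligase, stood at 17.0 and 26.6 CPM in the control libraries and at 11.8 and 11.7 CPM with cyclopamine. Its log2 fold change was -0.83 (SE 0.23, limma adjusted p = 0.302). Without control 1, the lower of the controls, it was -1.14. Neurl1b and Neurl2, genes of the Neuralized family, had log2 fold changes of -0.90 (SE 0.37) and -0.73 (SE 0.42). With a cyclopamine mean of 0.998 CPM, Neurl2 also passed the filter only through its control libraries. Chac1, whose product blocks Notch maturation and which is also known as a stress response gene, stood at 12.2 and 5.07 CPM in the control libraries and at 21.2 and 10.29 CPM with cyclopamine (0.87, SE 0.36). Its groups overlapped, and the libraries numbered 1 were the higher in both conditions. Without cyclopamine 2 the fitted difference of Chac1 was 1.37, from a fit that kept only the higher cyclopamine library. For 26 of the 29 genes, the ADAM protease, presenilin and fringe genes among them, the 95% interval held 0.

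Among 10 tested genes of the nuclear step, 0 had an unadjusted p under 0.05 in limma. The Mastermind genes Maml2 (0.25, SE 0.18) and Maml3 (-0.15, SE 0.16) had opposite signs. Nrarp, a feedback inhibitor gene induced by Notch, stood at 34.0 and 21.2 CPM in the control libraries and at 26.9 and 19.2 CPM with cyclopamine (-0.24, SE 0.23). As for Hes1, its libraries numbered 1 were the higher in both conditions.

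**Figure D5:**
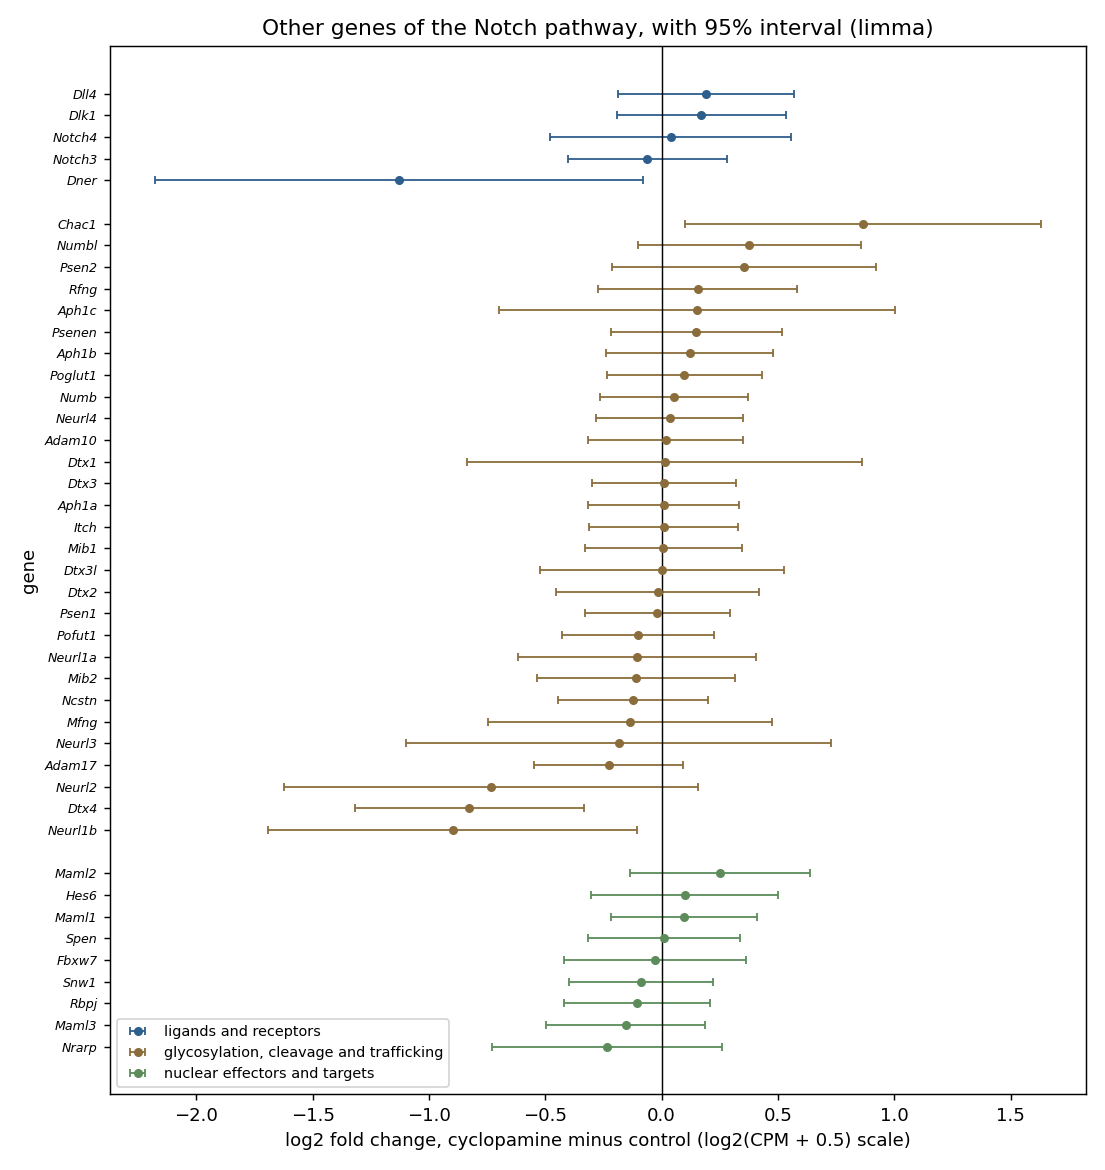
Log2 fold change of cyclopamine over control (log2(CPM + 0.5) scale) for further genes of the pathway, in 3 role groups, with bars for the 95% interval in limma. Points spread on both sides of 0, and Dner (-1.13) and Chac1 (0.87) are the extremes. Dner passed the filter only through its control libraries.

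The pattern of Heyl over the 4 libraries was compared with that of every tested gene by the Euclidean distance between log2(CPM + 0.5) profiles centred on each gene's mean. The closest were Ascl2 (distance 0.156), Inca1 (0.209), Syndig1 (0.214), Rtn4r (0.215) and Ak5 (0.221). All 5 were low genes with lower cyclopamine libraries, such as Ak5 at 5.78 and 5.58 CPM for the controls and 2.45 and 2.19 CPM with cyclopamine, and none passed the threshold in limma (the lowest adjusted p was 0.302, for Ak5). Among the members Dll1 came closest to Heyl (0.721), followed by Hey1 (0.790) and Jag1 (0.838). By this distance they ranked 238, 350 and 466 among the 13568 tested genes, so many other genes lay closer to Heyl than any member did.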

How the data were processed

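RNA was measured in 4 forelimb libraries. The submitters' processing notes name mm10, edgeR 3.4.2, HTSeq 0.5.4p5, SAMtools, Bowtie and TopHat2 2.0.9 without saying what each did. The authors deposited a normalized signal per gene and library, close to counts per 1000000 of an effective library size. All values were whole multiples of a single read's worth within 0.01 of a read (100% in each library), so reads were recovered. The authors' deposited comparison table, per the file headers, holds per gene the p-value, the false discovery rate, the mean log2 CPM and the log2 fold change.

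With R 4.3.3 and limma 3.58.1, genes whose mean reached 1 CPM were tested on log2(CPM + 0.5), with the variance trended on intensity. This scale understates the change of low genes. P-values are two-sided, adjusted over 13568 genes, with a threshold of 0.05. The 95% intervals come from the same fit. Alternatives were edgeR 4.0.16 and DESeq2 1.42.0 on recovered reads, other pseudocounts, filters, variance models and scalings, a replicate block, and leaving out each library. The fit was tested on simulated data. All 10 members were named, with, from the further list, the 4 genes of smallest p in each role group and any past the threshold, and the 5 genes of nearest pattern to the member of smallest p. A gene that this rule covers is not reported here. The members and lists were chosen with earlier results of these data known.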

Additional observations from a re-analysis of the deposited data

How the results depend on the processing

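Over 14 alternatives, the count of members past the threshold stayed at 0 in all but the fit with a replicate block, where it was 1, Heyl (log2 fold change -1.18, limma adjusted p = 0.0238). Deviations of same-numbered libraries correlated across genes (r = 0.274), but with 2 pairs and no label for the number this does not show pairing. Of the further pathway genes, 2 passed with the block, Dtx4 and Chac1, and from 0 to 1 when a library was left out. Over all genes, against 38, limma called 2 without a filter, 0 with an untrended variance (837 had an unadjusted p under 0.05), 20 with scaling to the column total, 25 with quantile normalization, 351 (2.59%) with the block, and from 43 to 122 when a library was left out; the cause was not tested. The signs of Jag1, Dll1, Hey1 and Heyl were the same in every fit that held them. Signs reversed in 7 of 136 member fits, each with a library left out: Notch2 (range -0.25 to 0.29), Lfng (-0.64 to 0.61), Hes1 (-0.47 to 0.45) and Hey2 (-0.11 to 0.042). With a minimum mean of 5 CPM, Dll1, Lfng, Hey2 and Heyl were not tested. A library left out leaves a single library in its group, which is assumed to vary like the others. Depth limits Dll1, Lfng, Hey2 and Heyl most, with 22 to 103 reads per library.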
